A study of Drosophila melanogaster with 3 samples.

Results

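The genes examined here are 9 central genes of insulin and target of rapamycin (TOR) signalling in Drosophila melanogaster, namely InR, chico, Akt, foxo, gig, Tsc1, Rheb, Tor and S6k. They were chosen by symbol from the 13945 protein-coding genes annotated on the 6 chromosome arms used. In the annotation Tor carries the symbol mTor (FBgn0021796), and the other 8 were found under the names given. The data were ChIP-seq peak lists for the CG3995 protein, annotated as bdwf, from whole embryos of both sexes collected between 0 and 24 hours. The flies stably carried CG3995 with green fluorescent protein at its C terminus, and an antibody to that tag pulled down the chromatin, which had been sonicated to 200 to 800 bp. The 3 biological replicates form 1 group, all of 1 transgenic line, so there was no second condition to compare. Whole embryos mix all tissues, so a region that is occupied in a few cells cannot be told apart from one weakly occupied in many.

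In this pathway insulin-like peptides bind the receptor InR, and the adaptor chico passes the signal to PI3-kinase, which brings the kinase Akt to the membrane. Akt restrains the transcription factor foxo and the complex of Tsc1 and gig (the fly TSC2), which in turn holds back the small GTPase Rheb. Active Rheb switches on the Tor kinase, whose complex 1 phosphorylates the ribosomal protein S6 kinase S6k and other proteins, and growth of cells and of the whole larva depends on this route.

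A gene is described as bound when a peak summit in the authors' thresholded list lay within 500 bp of one of its annotated starts. The threshold came from their irreproducible discovery rate step, which compares how regions rank between peak lists. The thresholded list held 4260 regions, and these were also the 4260 strongest of the 27868 regions called on the pooled replicates. The lists of replicates 1, 2 and 3 held 30000, 28051 and 24171 regions, many of them background, so each replicate was read through its own 4260 strongest. Of the thresholded regions 3107 overlapped these in every replicate, so a bound call alone does not mean that all 3 replicates agree. Each region has a signal, the authors' enrichment value without a unit, whose scale differs between lists. Ranks by signal (1 is the strongest) are therefore set side by side between lists, and signals are compared only within one. Read depth is unknown, and no control immunoprecipitation was analysed here, so whether a peak reflects the tagged protein or a general recovery of open promoters was not tested.

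The promoters of InR, Tsc1, Rheb, Tor and S6k were bound, and those of chico, Akt, foxo and gig were not. These 5 of 9 genes compare with 3936 of 13945 protein-coding genes (28.2%). Among the 4260 strongest regions the same 5 genes were found in each replicate, and Akt was the sixth in replicate 3 (5.33 ± 0.58 genes, SD, n = 3). The matching shares of all protein-coding genes were 28.0% in replicate 1, 28.0% in replicate 2 and 26.3% in replicate 3. With 9 genes picked for their roles and 1 group of samples, the count is a description and carries no test. Among these 9, the genes from the TSC complex to S6k were thus bound apart from gig, while of InR, chico, Akt and foxo only the receptor was. The wider list below did not keep this split, since Pi3K21B was bound, and raptor and rictor were not.

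The bases under the promoter summits of InR, Rheb and Tor are shown first, because these summits lay outside any annotated exon. Each run is 101 bases centred on the summit, read 5′ to 3′ on the strand of the gene, from the RefSeq copy of the dm6 assembly. They lie at chr3R:21619335-21619435 (InR, minus strand), chr3R:5568743-5568843 (Rheb, plus strand) and chr2L:13004160-13004260 (Tor, plus strand).
InR promoter: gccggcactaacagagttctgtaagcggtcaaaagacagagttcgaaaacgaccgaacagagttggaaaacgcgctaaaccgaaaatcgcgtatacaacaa
Rheb promoter: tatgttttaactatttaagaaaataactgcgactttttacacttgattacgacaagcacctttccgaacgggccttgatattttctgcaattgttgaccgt
Tor promoter: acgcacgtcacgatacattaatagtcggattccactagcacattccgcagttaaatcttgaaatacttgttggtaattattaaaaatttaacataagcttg
The summits of Tsc1 and S6k lay in 5′ UTRs, so for these genes the short stretch between the start and the first exon base of the gene on the other strand is shown. It runs over 51 bases for Tsc1 (chr3R:24130256-24130306, plus strand) and 41 bases for S6k (chr3L:5810932-5810972, minus strand).
Tsc1 upstream: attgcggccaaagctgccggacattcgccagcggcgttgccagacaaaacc
S6k upstream: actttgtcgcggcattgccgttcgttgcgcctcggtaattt

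InR encodes the receptor tyrosine kinase at the top of the route and lies on the minus strand of 3R from 21570248 to 21619321 (FBgn0283499). Its promoter peak had a signal of 280 and rank 1628 of 4260. The summit stood 64 bp upstream of the most distal of its 4 annotated starts, in intergenic sequence. The strongest promoter region ranked 2181, 1206 and 1486 in replicates 1, 2 and 3, with summits 103, 48 and 25 bp upstream of that start. All 3 ranks were inside the strongest 4260, and this was the strongest promoter peak of the 9 genes in the pooled replicates. No other gene had a start within 500 bp of the summit. A weaker pooled region, with a signal of 69.2, had its summit 246 bp inside an inner start of InR and 475 bp upstream of the start of the non-coding gene lncRNA:Irar.

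Rheb and Tsc1 had promoter peaks of nearly equal strength. Rheb (FBgn0041191, 3R from 5568921 to 5570491, plus strand), the GTPase that turns on Tor, had a signal of 240 and rank 1990. Its regions ranked 1732, 2383 and 3202 in replicates 1, 2 and 3. The summits were 128, 115 and 111 bp upstream of its start, a spread of 8.9 bp (SD, n = 3). Tsc1 (FBgn0026317, 3R from 24130307 to 24134654, plus strand), the partner of gig in the TSC complex, had a signal of 238 and rank 2010. Its regions ranked 1839, 2134 and 2722 in replicates 1, 2 and 3. The Tsc1 summits lay in its 5′ UTR, 26, 31 and 28 bp inside the start (28.3 ± 2.5 bp, SD, n = 3), the tightest position among the bound genes.

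S6k and Tor had weaker promoter peaks. S6k (FBgn0283472, 3L from 5797549 to 5810931, minus strand) had a signal of 208 and rank 2384, and its regions ranked 3108, 2233 and 2650 in replicates 1, 2 and 3. Its summits lay 3, 49 and 70 bp inside the start, in the 5′ UTR in the pooled list. Tor (FBgn0021796, 2L from 13004480 to 13013197, plus strand) had a signal of 185 and rank 2714. Its regions ranked 3788, 1633 and 3903 in replicates 1, 2 and 3, so replicate 2 placed it higher than replicates 1 and 3. The Tor summits were 319, 265 and 158 bp upstream of the start, the widest scatter among the bound genes (81.9 bp, SD, n = 3). The Tor call ended when the distance was set to 200 bp, since the thresholded summit lay 270 bp upstream. The call also ended when a summit counted only for its nearest start, since that summit was closer to Vha68-1.

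**Figure D1:**
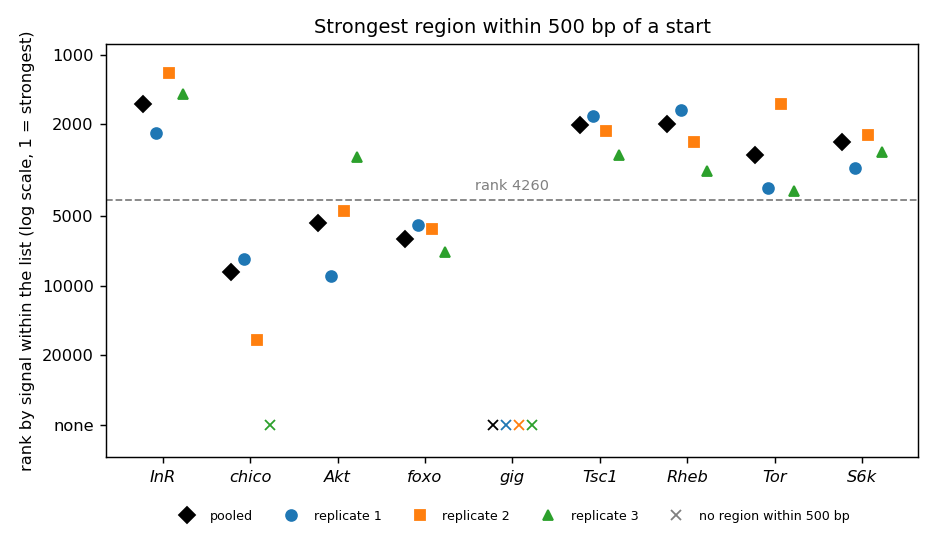
Rank by signal (log axis, 1 is the strongest) of the strongest region within 500 bp of a start of each gene, in the pooled list and in replicates 1 to 3; crosses mark lists with no such region and the dashed line is rank 4260. InR, Tsc1, Rheb, Tor and S6k lie above the line in all 4 lists, Akt only in replicate 3, chico and foxo in none, and gig has no region.

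None of these 5 peaks was strong among bound genes. Over the 3936 bound protein-coding genes the median signal of the strongest promoter summit was 256, with quartiles of 175 and 489. The signals of the 5 genes ran from 185 to 280 with a median of 238. InR exceeded 54.9% of bound genes, Rheb 46.0%, Tsc1 45.4%, S6k 36.1% and Tor 29.2%. All 5 thus lay between the quartiles, and only InR was above the median.

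**Figure D2:**
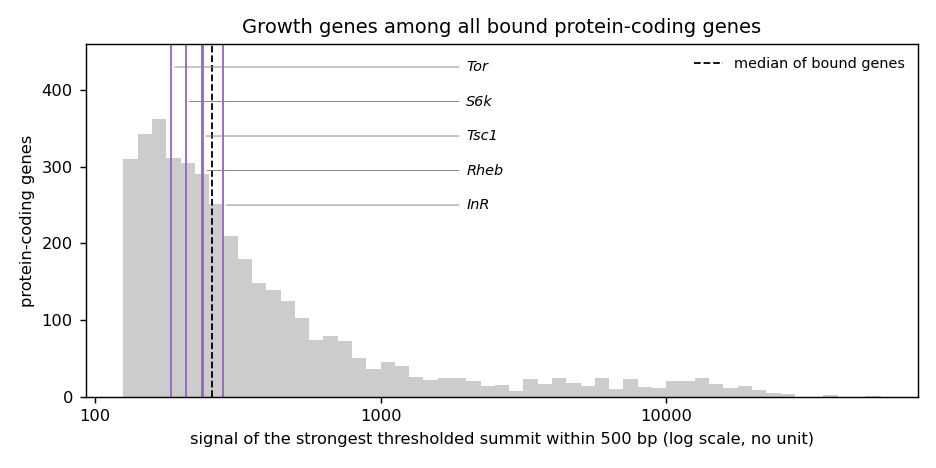
Histogram of the signal (log axis, authors' value without a unit) of the strongest thresholded summit within 500 bp of a start, over 3936 bound protein-coding genes; vertical lines mark the bound growth genes and the dashed line the median of 256. The 5 lines fall between 185 and 280.

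The 4 bound genes other than InR each share their upstream region with a protein-coding gene on the opposite strand. Tsc1 starts 52 bp from GatB, which encodes a subunit of the mitochondrial glutamyl-tRNA amidotransferase, and the summit was 77 bp upstream of the GatB start. S6k starts 42 bp from kri, with the summit 45 bp upstream of the kri start. Rheb starts 306 bp from CG2931, whose start was 178 bp from the summit. Tor starts 373 bp from Vha68-1, which encodes a subunit of the proton pump (V-ATPase) that acidifies lysosomes. The Tor summit was 103 bp upstream of Vha68-1 and 270 bp upstream of Tor. The Rheb and Tor summits lay between the starts of the pair, while those of Tsc1 and S6k lay 25 and 3 bp inside these genes. The summits of Tsc1, Rheb and S6k were nearer to these genes than to the neighbour, and the Tor summit was nearer to Vha68-1. A peak this close to both starts cannot be assigned to one gene of the pair by position alone.

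The other genes were placed differently. Akt starts 467 bp from Mhcl, a myosin heavy chain-like gene on the opposite strand, and was not bound. The nearest divergent coding start was 1800 bp away at gig, 3659 bp at chico, 20547 bp at foxo and 45068 bp at the bound InR start. Over the whole genome 57.6% of the 3815 protein-coding genes with a divergent coding start within 500 bp were bound, against 17.2% of the 10130 without one. The growth genes fell the same way, with 4 of the 5 that have such a neighbour bound and 1 of the 4 that lack one. Counts this small are given as a description only.

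**Figure D3:**
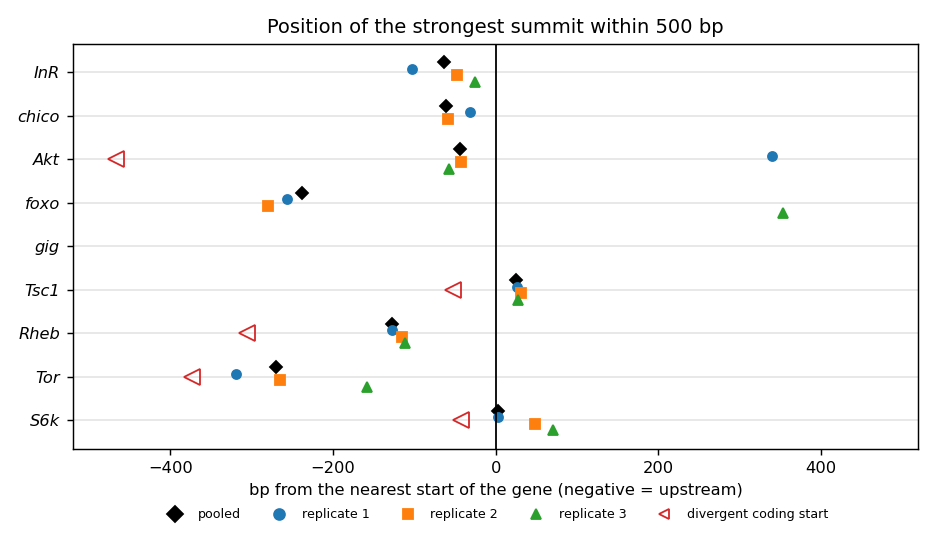
Position of the strongest summit within 500 bp of a start, in bp from the nearest start of the gene (negative is upstream), for the pooled list and replicates 1 to 3; open red triangles mark a protein-coding start on the opposite strand. Tsc1 summits sit 25 to 31 bp inside the gene in all 4 lists, while Tor summits spread from 319 to 158 bp upstream and Akt and foxo each have 1 replicate on the other side of the start.

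The 4 genes that were not bound differed in how far they fell below the threshold. Akt, the kinase between PI3-kinase and its targets (FBgn0010379, 3R from 16099228 to 16105670, plus strand), came closest. Its pooled region had its summit 44 bp upstream of the start, a signal of 104 and rank 5325, where the weakest thresholded region had 127. Replicates 2 and 3 had summits 43 and 57 bp upstream, at ranks 4769 and 2782. In replicate 1 the strongest region lay 340 bp inside the start at rank 9113. A weaker one, upstream of the start as in replicates 2 and 3, ranked 14710. The replicates therefore stood on both sides of rank 4260, with 1 of 3 inside it.

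Regions near foxo and chico were weaker. For foxo, the forkhead factor that is active when insulin signalling is low (FBgn0038197, 3R from 14056945 to 14087978, plus strand), the pooled summit was 238 bp upstream with a signal of 90.7 and rank 6254. Replicates 1 and 2 had summits 257 and 280 bp upstream at ranks 5435 and 5693, and replicate 3 had its strongest 353 bp downstream at rank 7151. For chico, the adaptor of the receptor (FBgn0024248, 2L from 10242512 to 10247078, minus strand), the pooled summit was 61 bp upstream with a signal of 69.4 and rank 8707. Replicates 1 and 2 ranked it 7664 and 17111, and replicate 3 had no region there. The −log10 q-value of the authors was 2.8 for the Akt region, 2.16 for foxo and 1.18 for chico in the pooled list, against 3.91 at each of the 5 bound promoters. InR intronic summits of signal 148 and 430, described below, also had 3.91, so this value does not separate the bound promoters from one another.

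The fourth, gig (FBgn0005198, 3L from 20129181 to 20139010, plus strand), encodes the GTPase activator that works together with Tsc1. No list had a region within 500 bp of its single start. This was so for 31.6% of protein-coding genes, while 57.3% had at least 1 pooled region within that distance, bound or not, as did 8 of the 9 genes here. The only region in its span was 1 near its 3′ end in replicate 3, at rank 19320. Of the paired subunits of the TSC complex, Tsc1 was thus bound and gig was not.

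Upstream sequence of gig, Akt and Tor is shown to set a promoter without any region beside one just below the threshold and one above it. The 200 bases before each start are at chr3L:20128981-20129180, chr3R:16099028-16099227 and chr2L:13004280-13004479, all on the plus strand, and capitals mark matches to the sequences searched, of which gig has none here.
gig upstream: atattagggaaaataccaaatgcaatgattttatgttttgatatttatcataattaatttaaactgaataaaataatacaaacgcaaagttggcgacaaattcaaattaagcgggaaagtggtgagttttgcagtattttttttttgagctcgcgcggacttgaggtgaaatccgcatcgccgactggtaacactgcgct
Akt upstream: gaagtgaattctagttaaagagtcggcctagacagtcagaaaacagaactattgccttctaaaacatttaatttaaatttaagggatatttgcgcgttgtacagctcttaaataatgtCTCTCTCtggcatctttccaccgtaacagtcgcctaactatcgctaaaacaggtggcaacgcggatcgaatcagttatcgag
Tor upstream: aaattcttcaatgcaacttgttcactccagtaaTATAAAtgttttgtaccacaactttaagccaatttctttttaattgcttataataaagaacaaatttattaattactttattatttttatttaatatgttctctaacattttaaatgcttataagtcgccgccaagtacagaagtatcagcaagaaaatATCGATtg
The capitals in Akt are a GAGA match read on the other strand. Those in Tor are a TATA match followed by the core of the DNA replication-related element (DRE).

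Sequences known from Drosophila promoters were searched on both strands from 250 bp before to 50 bp after each start, a window of 300 bp. The DRE, TATCGATA, was in the window of none of the 9 genes, and neither was Motif 1, GGTCACAC. The DRE was in 18.1% of the 4878 bound protein-coding starts and in 4.54% of the 14375 others, and Motif 1 in 13.0% and 4.60%. The 6-base core of the DRE, ATCGAT, was searched after that result and is part of TATCGATA. It was found 8 bp upstream of the Tor start, 115 bp upstream of and again at the Tsc1 start, and 227 bp upstream of foxo. All promoter windows together held it in 20.8% of cases, 35.9% of the bound and 15.7% of the others.

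Other matches were few. A GAGA match, GAGAGAG, stood 82 bp upstream of Akt, and 7.62% of all windows had one. The binding sequence of FOXO proteins, GTAAACA, was 75 bp upstream of the start of InR farthest inside the gene and 167 bp upstream of the inner start of Akt, and 8.87% of all windows had it. InR is a textbook target of FOXO, but this match lies 29055 bp downstream of the bound promoter. It is nearer to a thresholded intronic summit of signal 325, described below, which stood 627 bp upstream of the same inner InR start. A TATA match, TATAAA, was in windows of InR, chico, gig and Tor, and 42.2% of all windows had one. In InR it stood 229 bp upstream of the first start and 120 bp upstream of the innermost one. It was 246 bp upstream of chico, 167 bp upstream of Tor and 35 bp inside gig. CACGTG was in none (4.01% of all windows). Within 50 bp of the thresholded summits listed here, the sole match was the DRE core at the Tsc1 start.

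InR differed from the other genes in its introns. Its span held 7 thresholded summits more than 500 bp from every start, and none of the other 8 genes had any. Of all protein-coding genes 746 (5.35%) had at least 1 such summit and 7 (0.0502%) had 7 or more. Of the 321 genes at least as long as InR (49074 bp), InR included, 214 had none and 4, again with InR, had 7 or more. The rest of the 321 had at least 1, a larger share than the 5.35% of all protein-coding genes. Whether gene length accounts for the InR count was not tested. In the pooled list, which includes background, InR had 34 such summits, foxo 15 and S6k 5.

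The strongest summit in InR was inside the gene, not at its promoter. It lay 34857 bp downstream of the first start, at 21584464, with a signal of 430 and rank 954, and ranked 838, 890 and 1261 in replicates 1, 2 and 3. The next had a signal of 325 and rank 1343, with ranks of 1492, 1196 and 1382, and stood 627 bp upstream of the innermost start. A companion 826 bp upstream of that start had a signal of 201 and ranks of 2329, 2759 and 3233. A summit 19515 bp downstream of the first start had a signal of 174 and ranks of 3160, 3812 and 2386. These 4 summits were among the strongest 4260 regions of every replicate, and all 7 lay in introns of InR.

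The remaining 3 were less steady. The summit 4218 bp downstream of the first start, which also lay in an exon of lncRNA:CR44034, had a signal of 164 and ranks of 3841, 6708 and 2591. The summit 32006 bp downstream had a signal of 148 and ranks of 3260, 5984 and 3675. The summit 34653 bp downstream, beside the strongest one, had a signal of 131 and ranks of 14274, 2688 and 7482. Ranks are those of the strongest replicate summit within 100 bp. Overlapping regions merged the 7 summits into 5 separate places, and 10 protein-coding genes (0.0717%) had 5 or more when merged.

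The bases under the 3 highest separate intronic summits are given on the minus strand, the strand of InR, at chr3R:21584414-21584514, chr3R:21590768-21590868 and chr3R:21599756-21599856. None of the sequences searched was in these windows.
InR intron summit of signal 430: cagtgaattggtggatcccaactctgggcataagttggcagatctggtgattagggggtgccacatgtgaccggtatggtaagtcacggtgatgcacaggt
InR intron summit of signal 325: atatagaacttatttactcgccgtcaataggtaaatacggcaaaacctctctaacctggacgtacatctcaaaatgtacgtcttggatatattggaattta
InR intron summit of signal 174: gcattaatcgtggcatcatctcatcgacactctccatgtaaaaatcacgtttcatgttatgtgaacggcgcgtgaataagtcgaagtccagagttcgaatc

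**Figure D4:**
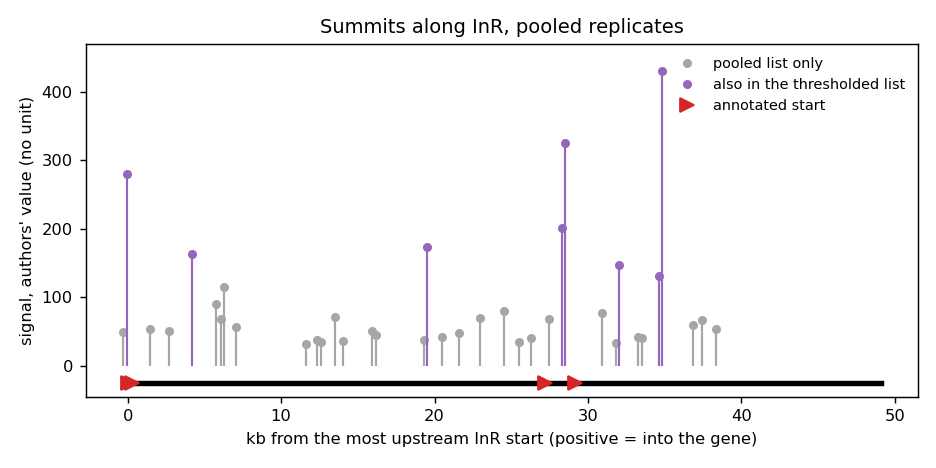
Signal (authors' value without a unit) of every pooled summit along InR, by distance in kb from its most upstream start; purple stems are also in the thresholded list, grey stems are in the pooled list alone, and red triangles mark the annotated starts. The tallest stem, 430, stands 34857 bp into the gene and exceeds the promoter stem of 280.

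The other genes of the pathway were described from a list of 58 chosen for their roles. Of these 24 were bound (41.4%, against 28.2% of protein-coding genes), and the replicates gave 25.33 ± 2.08 (SD, n = 3). Ligands had no bound promoter. None of the 8 insulin-like peptide genes Ilp1 to Ilp8 was bound, and Ilp7 and Ilp8 alone had a pooled region, at ranks 19690 and 17498. The genes of the secreted binding proteins ImpL2 and Sdr, which bind the peptides, were not bound either.

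Near the receptor, Pi3K21B (signal 725), the adaptor subunit of PI3-kinase, and Pi3K92E (1026), its catalytic subunit, were bound. So was step (186), a guanine nucleotide exchange factor, while Pdk1 and the adaptor gene Lnk were not. The Pi3K92E signal belonged to a summit 444 bp upstream and 304 bp from Lrrk. Its strongest region, at rank 143, had its summit 664 bp upstream, outside the limit, and the replicate summits stood 666, 664 and 658 bp upstream. PRAS40 (195) and sgg (326), which encodes a glycogen synthase kinase, were the 2 listed genes for substrates of Akt, and both were bound, while foxo and gig, also targets of Akt, were not. The gene melt (251), whose product recruits Tsc1 and foxo to the membrane, was bound. The phosphatase subunit gene wdb was not bound.

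Genes of the TOR complexes divided. Sin1, a subunit of TOR complex 2, had the highest signal of the 58 (11016, rank 70, summit 41 bp upstream), with ranks of 79, 74 and 56 in replicates 1, 2 and 3. CG17385 had a start 212 bp from that summit. Lst8 (164), shared by both complexes, was bound, and raptor and rictor, which define complex 1 and complex 2, were not. For raptor there was no pooled region, while rictor ranked 4159, 6304 and 3853 in replicates 1, 2 and 3. Of 8 genes for the GATOR complexes, which relay amino acid supply to TOR complex 1, 5 were bound, namely Wdr24 (680), Iml1 (352), Sec13 (216), mio (196) and Nup44A (141). Of these 5 peaks 4 were shared with other genes. The Wdr24 summit was nearer to IntS11 (47 bp against 198 bp), and that of mio was nearer to CG15386 and CG42371 (23 bp against 67 bp). ACC had a start 86 bp from the Nup44A summit, and ATPsynCF6 had one 261 bp from the Sec13 summit. Of 7 Rag GTPase and Ragulator genes, whose products bring that complex to the lysosome, only Lamtor3 (374) was bound, by a peak that is shared with fws.

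Inputs and targets were mixed. Among 7 genes of amino acid or energy input Sesn (396), alc (265) and SNF4Agamma (151) were bound, and alc and SNF4Agamma encode subunits of AMP-activated kinase. The stress-response genes chrb and scyl were not. Of 8 TOR targets, 4 were bound, namely REPTOR (449) and Mitf (272), transcription factors held back by TOR, RpS6 (158), the ribosomal protein that S6k phosphorylates, and Atg1 (134), the kinase that starts autophagy. Thor, the translation inhibitor 4E-BP and a target of both foxo and Tor, was not bound. TBC1D7 (343), a further partner of the TSC complex, and Tctp (210), described as a regulator of Rheb, were both bound. Another gene had a start within 500 bp of the summit at 12 of the 24 bound genes. The matching share over all bound genes was not determined. When a summit counted only for its nearest start, 20 of the 24 remained, without Lamtor3, Pi3K92E, Wdr24 and mio. That was 34.5% of the 58, against 20.6% of protein-coding genes. Of the 24 bound genes 20 were within the strongest 4260 regions of all 3 replicates, and 24 of the 34 unbound genes had a weaker pooled region. Among the unbound, Pdk1, wdb, rictor and RagA-B were within the strongest 4260 in 2 replicates, as were the bound Nup44A and Atg1. With only thresholded peaks that overlapped the strongest regions of every replicate, 21 of the 58 were bound (36.2%, against 21.9% of protein-coding genes). Pooled regions of any strength lay near 48 of the 58 (82.8%, against 57.3% of protein-coding genes).

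**Figure D5:**
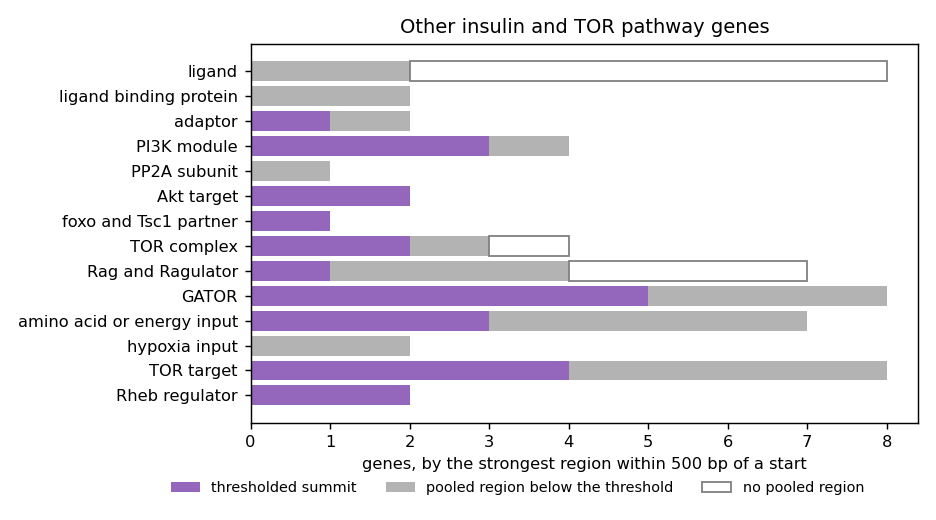
Number of the 58 other pathway genes, by role, bound at a start (purple), with a pooled region below the threshold (grey) or with no pooled region (white). Both Akt target genes and 5 of 8 GATOR genes are bound, and none of 8 ligand genes is, beside 28.2% of all protein-coding genes. Of the 5 GATOR peaks 4 are shared with other genes. Classes this small are a description only.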

How the data were processed

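ChIP-seq peak lists of the 3 replicates were analysed on dm6. Per the file lists deposited with the samples, each replicate list and a pooled list were called by the authors from alignments with a control file and hold peaks and background, and the thresholded list came from the irreproducible discovery rate procedure. The aligner, the caller, their versions and the threshold are not given in the sources used here. The deposited signal values and −log10 q-values are the authors' own; signal was used only to rank or filter within a list. Lists on dm3 were not used.

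Genes and starts came from Ensembl release 115 (BDGP 6.54; 18164 genes on 6 arms) and sequence from RefSeq of the same assembly. Summits were set at the region start plus the deposited offset and compared with starts in Python 3.11.15 with pandas 2.3.3; the search was checked against planted summits. Of the 9 genes 8 matched by symbol and 1 (Tor) by synonym, and of 58 pathway genes 57 by symbol and 1 by synonym. The genes, lists and distances were chosen with earlier results of these data known, so no list was tested and no p-value is given. Named are all 9 genes, the bound pathway genes save 1 that is counted but not reported here, and the genes with a start within 500 bp of a thresholded or pooled summit of the 9. Some unbound pathway genes and neighbours of pathway genes are also named, chosen after their values were seen, and melt was set apart from the Akt targets then. Whether the replicates came from separate collections is known only from their being labelled biological replicates.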

Additional observations from a re-analysis of the deposited data

How the results depend on the processing

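The 5 bound genes of 9 remained the same 5 at 1000 bp, with merged regions, in peaks found in the strongest regions of every replicate (also at 50% coverage), and without any one replicate (5 to 5). They became 4 without Tor at 200 bp (22.6% of protein-coding genes) and by nearest start alone (20.6%). Where all 5 remained, the share of protein-coding genes was 31.1% at 1000 bp and 28.1% with merged regions. It was 21.9% for peaks found in every replicate and 21.2% at 50% coverage, so the background moved with the setting. In the 2130 strongest thresholded peaks 3 remained (InR, Tsc1 and Rheb; 16.3% of protein-coding genes), and 13 of the other pathway genes (22.4%). Without 1 replicate those pathway genes numbered 21 to 23 (36.2% to 39.7%), beside 22.8% to 24.4% of protein-coding genes. In the 2130 strongest regions of the replicates 1.67 ± 0.58 of the 9 were bound (SD, n = 3; 2, 2 and 1 genes), beside 16.2%, 16.0% and 15.8% of protein-coding genes, a share near that background. The other settings kept the 3 counts within 1.5 times. No paired analysis was possible because there is 1 group. Depth is unknown, so a promoter without a region may lie below what these lists could detect.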

Other observations

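The other genes with at least 7 thresholded summits in the span and more than 500 bp from every start were Raf (8), a kinase downstream of receptor tyrosine kinases, shn (8), a zinc finger factor of Dpp signalling, Hr4 (8), a nuclear receptor, CHES-1-like (7), a forkhead gene, kirre (7), an adhesion gene of muscle fusion, and simj (7). They were named after their values were seen. With merged regions Raf and Hr4 kept 8, shn, kirre and CHES-1-like had 7, and simj had 4, beside 5 for InR.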
